A study of Arabidopsis thaliana with 12 samples.

Results

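Transcript levels of 4 nuclear genes for redox control and antioxidant defence were measured in the prors2 mutant of Arabidopsis thaliana and set against those in the wild type (WT). The 4 genes were chosen by name, with earlier results of these data known. They are AT3G52960 (a plastid type II peroxiredoxin), CCS (AT1G12520, the copper chaperone for superoxide dismutase), GLDH (AT3G47930, L-galactono-1,4-lactone dehydrogenase) and NTRC (AT2G41680, NADPH-dependent thioredoxin reductase C). Each had exactly 1 probe that the platform's gene table ties to that gene alone, so they are 4 of the 692 single-gene probes among 3439 features. The labels describe prors2 as a mutant in which prolyl tRNA synthetase is missing, and both genotypes are in the Columbia 0 background. There were 6 prors2 and 6 WT samples of total RNA, 1 array each, numbered 1 to 6 within each genotype. The sources used here do not give tissue, plant age, growth conditions or the nature of the mutant allele, so no tissue label could be checked against markers. Nothing in the labels says whether the samples are separate plants. The p-values thus cover the spread among these arrays, which may be technical.

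Chloroplasts and mitochondria produce superoxide and hydrogen peroxide as by-products of electron transport, and the 4 genes act at different points of their removal. A peroxiredoxin reduces hydrogen peroxide and organic peroxides with a reactive cysteine, which is then reduced again by thioredoxins, glutaredoxins or related proteins. NTRC joins a thioredoxin reductase and a thioredoxin in 1 plastid protein and passes electrons from NADPH to peroxiredoxins and other plastid targets. GLDH sits in the inner mitochondrial membrane and carries out the last step of the main route of ascorbate synthesis, and CCS loads copper into the copper/zinc superoxide dismutases, which convert superoxide to hydrogen peroxide.

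The prolyl-tRNA synthetase genes AT5G52520 and AT3G62120 had no single-gene probe here and are not analysed, so the genotype labels were not checked at the transcript level. The deposited values are relative intensities between 0 and 100 on a linear scale, and the whole array moved with genotype. The median feature of an array lay between 0.279 and 0.305 in prors2 and between 0.135 and 0.169 in WT. Between 262 and 316 features stood at 0 on a prors2 array, against 368 to 396 on a WT array. For the main comparison the log2 values were therefore quantile-normalized, which gives every array the same distribution of values, and zeros were left out. A feature was tested with limma if at least 4 values above 0 were present per genotype, and was called where its Benjamini-Hochberg adjusted p over all 3024 tested features was under 0.05. All log2 differences below are prors2 minus WT. How far the shift of the whole array enters the difference of a single gene was not tested. Values under the other scalings are given beside each gene.

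All 4 genes passed the filter on low values. After quantile normalization 2 of the 4 were called higher in prors2, AT3G52960 and CCS, where 24.8% of all tested features were called higher. The other 2, GLDH and NTRC, were called lower, where 22.4% of all tested features were called lower. In all 47.2% of features were called in one direction or the other, and the 4 genes were chosen with earlier results of these data known, so nothing is read from their count. This fit did not use the replicate numbers. With them as a block, AT3G52960 was still called higher, and GLDH and NTRC lower (limma adjusted p = 1.8e-04, 1.48e-04 and 0.00209). CCS was not called in that fit (limma adjusted p = 0.079), which called 28% of tested features higher and 25.1% lower. The genes differed in how far the call depended on the scaling and on single samples, and are described in turn.

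The plastid peroxiredoxin gene AT3G52960 was higher in every prors2 sample than in any WT sample. Its deposited intensity ran from 1.16 to 1.43 with a median of 1.26 in prors2, against 0.455 to 0.608 with a median of 0.518 in WT. The group means were 1.26 ± 0.095 in prors2 and 0.525 ± 0.051 in WT (SD, n = 6 each), a ratio of 2.40. In RNA of whole samples, more cells that express a gene and more RNA per cell cannot be told apart, which holds for every gene below. The groups were tight, with coefficients of variation of 7.54% in prors2 and 9.66% in WT, and the gap between them exceeded the spread in either. Of all tested features 37.2% also lay higher in prors2 without overlap on the deposited values. Within an array the gene stood above 88.1% to 89.7% of features in prors2 and above 78% to 83.8% in WT, ranks that do not depend on a scale factor per array.

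After quantile normalization AT3G52960 rose by 0.90 on the log2 scale (95% interval 0.69 to 1.11, limma adjusted p = 1.19e-05), which is 1.87-fold. Its standard error of 0.095 was among the smallest, with 3.31% of tested features having a smaller one. The difference was positive within each of the 6 replicate numbers, between 0.72 in number 6 and 1.11 in number 4. Of the features above 0 in all 12 samples, 26.9% were higher in prors2 within every replicate number. The rise was called under each of the 4 scalings tried, at 1.27 without scaling, 1.19 with array sums made equal and 0.44 after median centring of the log2 values (limma adjusted p = 5.04e-07, 6.95e-07 and 0.00455). The deposited values carry a shift of the median tested feature of 0.76, so that AT3G52960 exceeded that feature by 0.51. It was thus not among the extreme features: 15.7% of those tested had a larger log2 difference after normalization. Its rank from the top among 3024 features was 475 after quantile normalization. It was 845 without scaling, 847 with sums made equal and 846 with medians centred. These last ranks lie close because the scalings behind them differ only by a factor per array, and are not separate checks.

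**Figure D1:**
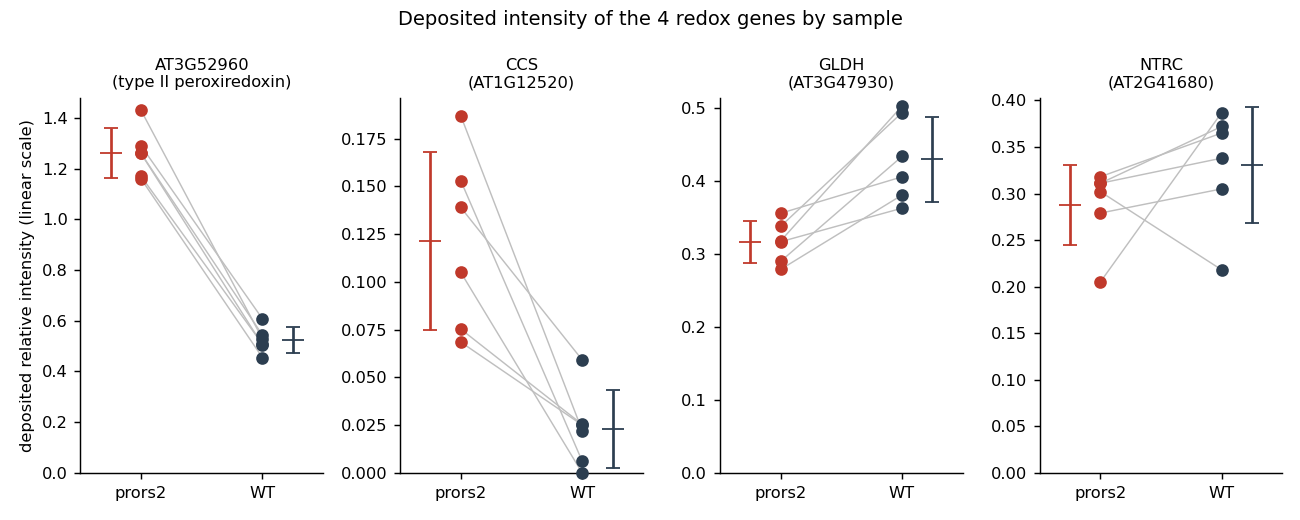
Deposited relative intensity (linear scale, starting at 0, own axis per gene) of the 4 redox genes in 6 prors2 (red) and 6 WT (dark blue) samples. Points are samples, grey lines join equal replicate numbers, and the crosses beside the points are the mean and SD. The genotypes do not overlap for AT3G52960, CCS and GLDH, and overlap for NTRC. Of all tested features 37.2% lay higher and 6.38% lower in prors2 without overlap.

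CCS, which supplies copper to the copper/zinc superoxide dismutases of cytosol and plastid, stood low in the ranking of every array and had the largest spread between samples of the 4 genes. Its deposited intensity ran from 0.0685 to 0.187 with a median of 0.122 in prors2, against 0 to 0.0592 with a median of 0.0237 in WT. The group means were 0.121 ± 0.046 in prors2 and 0.023 ± 0.021 in WT (SD, n = 6 each), and the lowest prors2 sample lay just above the highest WT sample. That gap was narrow, and WT replicate 2 was at 0. Without overlap in this direction lay 37.2% of tested features on the deposited values. In rank within the array the genotypes overlapped. CCS stood above 15.8% to 33.7% of features in prors2 and above 11.7% to 25.3% in the WT samples where it was above 0. In WT replicate 2 it was tied with all features at 0, for which the averaged rank was 5.64%, and stood above none.

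After quantile normalization, with WT replicate 2 left out because it was at 0, CCS differed by 1.34 (SE 0.51, 95% interval 0.23 to 2.46, limma adjusted p = 0.0484) over 6 prors2 and 5 WT samples. The normalized values overlapped, between -4.35 and -2.92 in prors2 and between -6.90 and -3.61 in WT, while 16.3% of tested features were higher in prors2 without overlap on that scale. Of all tested features 87.6% had a smaller standard error. The call rests on few samples and was not past the threshold when the replicate number entered the fit as a block (1.37, limma adjusted p = 0.079). That blocked fit called 28% of tested features higher and 25.1% lower. Leaving out 1 sample ended it for prors2 replicates 1, 2, 3 and 6 (limma adjusted p = 0.0841, 0.0674, 0.0876 and 0.0918) and for WT replicates 4, 5 and 6 (limma adjusted p = 0.0786, 0.0626 and 0.0659). Without WT replicate 3, the lowest WT value above 0, the difference was 0.86 (limma adjusted p = 0.0715). On the deposited values CCS was higher in prors2 within all 6 numbers, as were 55.3% of tested features. After normalization it was higher in all 5 replicate numbers with a value above 0 in both genotypes, and uneven: 0.32 in number 1, 0.39 in number 5, 0.63 in number 4, 1.80 in number 6 and 3.70 in number 3. In number 2 the deposited value was 0.105 in prors2 and 0 in WT. CCS was called higher without scaling (2.37), with sums made equal (2.29) and with medians centred (1.53), with limma adjusted p of 0.00153, 0.00222 and 0.0283.

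GLDH, the enzyme of the last step of ascorbate synthesis, was lower in every prors2 sample than in any WT sample. Its deposited intensity ran from 0.279 to 0.356 with a median of 0.318 in prors2, against 0.363 to 0.503 with a median of 0.42 in WT. The group means were 0.316 ± 0.029 in prors2 and 0.43 ± 0.058 in WT (SD, n = 6 each), 1.36-fold lower in prors2. The gap was small beside the spread of the WT samples but left no overlap, and such separation in this direction held for 6.38% of tested features on the deposited values. Within an array GLDH stood above 48.2% to 58.7% of features in prors2 and above 72.6% to 80.5% in WT.

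After quantile normalization GLDH fell by 1.11 (SE 0.11, 95% interval -1.35 to -0.86, limma adjusted p = 9.15e-06), which is 2.15-fold. Of all tested features 9.16% had a more negative difference. The 6 replicate numbers all gave a negative difference, as they did for 25.6% of the features above 0 in all 12 samples, at -0.84 and -0.87 in numbers 1 and 2 and between -1.26 and -1.22 in numbers 3 to 6. GLDH was also lower in prors2 within every replicate number on the deposited values, between -0.66 and -0.19, as were 9.56% of tested features. The fall was called under all 4 scalings, at -0.44 without scaling, -0.51 with sums made equal and -1.26 with medians centred (limma adjusted p = 0.0044, 0.00165 and 5.12e-06). Its size depended on the scaling more than on the samples, since leaving out any 1 sample kept it between -1.17 and -1.04.

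NTRC, the plastid thioredoxin reductase, differed little between the genotypes on the deposited values. The intensity ran from 0.205 to 0.318 with a median of 0.307 in prors2, against 0.218 to 0.387 with a median of 0.352 in WT. The means were 0.288 ± 0.043 in prors2 and 0.331 ± 0.062 in WT (SD, n = 6 each), and the groups overlapped. Replicate 3 in prors2 and replicate 5 in WT were each the lowest sample of their genotype. The log2 difference of the deposited values was -0.19 (95% interval -0.54 to 0.16, limma adjusted p = 0.312), and with array sums made equal it was -0.26 (95% interval -0.61 to 0.08, limma adjusted p = 0.158).

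The rank of NTRC within the array did separate the genotypes. NTRC stood above 37% to 53.4% of features in prors2, against 63.1% to 73.3% in WT. After quantile normalization it fell by 0.94 (SE 0.14, 95% interval -1.25 to -0.62, limma adjusted p = 2.07e-04), with values between -2.78 and -2.07 in prors2 and between -1.70 and -1.15 in WT. Without overlap in this direction lay 14.8% of tested features on that scale. After median centring it fell by 1.02 (limma adjusted p = 8.56e-05). The fall of NTRC was thus a fall relative to the other features of the same array, while its deposited intensity showed no difference past the threshold. Within replicate numbers the normalized difference was between -1.60 in number 3 and -0.41 in number 5, and on the deposited values 5 numbers were negative and number 5 was positive, at 0.47.

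**Figure D2:**
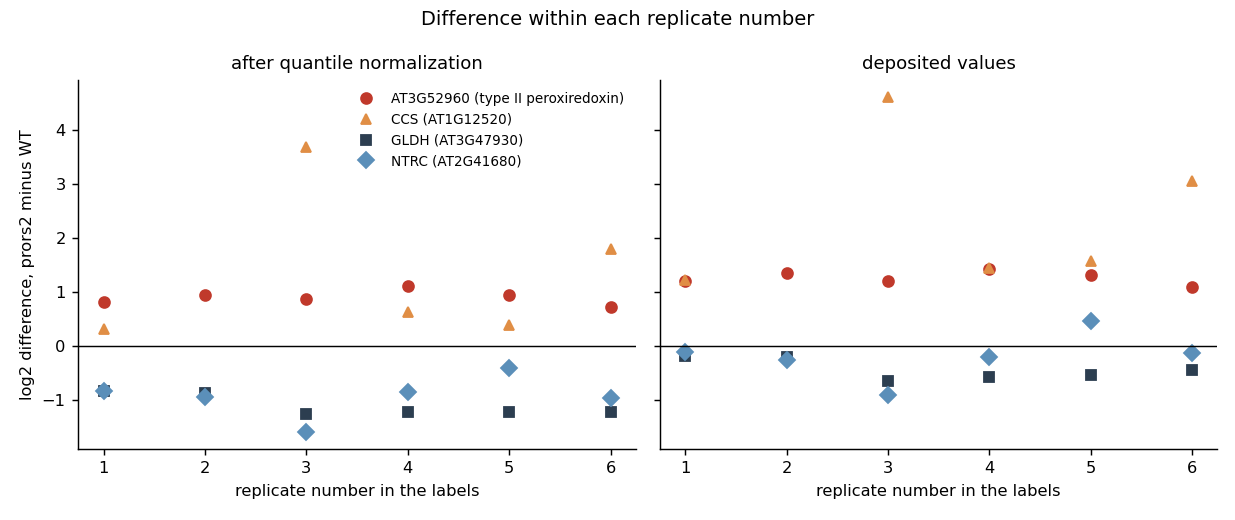
Log2 difference (prors2 minus WT) of each redox gene within each replicate number, after quantile normalization (left) and on the deposited values (right). Points are single differences between 1 prors2 and 1 WT sample; CCS has no point in number 2, where the WT value was 0, and NTRC in number 5 lies above 0 on the deposited values.

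The size of each difference moved with the scaling. Deposited values, equal sums and median centring differ only by a factor per array, and between them the 4 genes moved by nearly equal amounts. Between these and quantile normalization the genes moved by unequal amounts. The median tested feature lay at 0.07 after quantile normalization, 0.76 without scaling, 0.69 with sums made equal and -0.06 with medians centred. Relative to that median, the 3 scalings other than quantile normalization must give nearly the same value, so their likeness is no separate check. The difference of GLDH relative to the median was between -1.20 and -1.18 under the 4 scalings, and that of NTRC between -1.01 and -0.95. AT3G52960 lay 0.51 above it under 3 scalings and 0.83 above it after quantile normalization, and CCS between 1.27 and 1.60 above it. Under all 4 scalings AT3G52960 and CCS were called higher and GLDH lower, while 18.4% of tested features were called higher and 8.7% lower under all 4. Across the array the higher features made up 52.6% of those called after quantile normalization, 86.7% without scaling, 84.8% with sums made equal and 40.5% with medians centred. Of all tested features 57.8% were called higher and 8.9% lower without scaling, 55% and 9.85% with sums made equal, and 19.8% and 29.1% with medians centred. A higher call without scaling, as for AT3G52960 and CCS, was thus common, and a lower call there, as for GLDH, was less so.

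**Figure D3:**
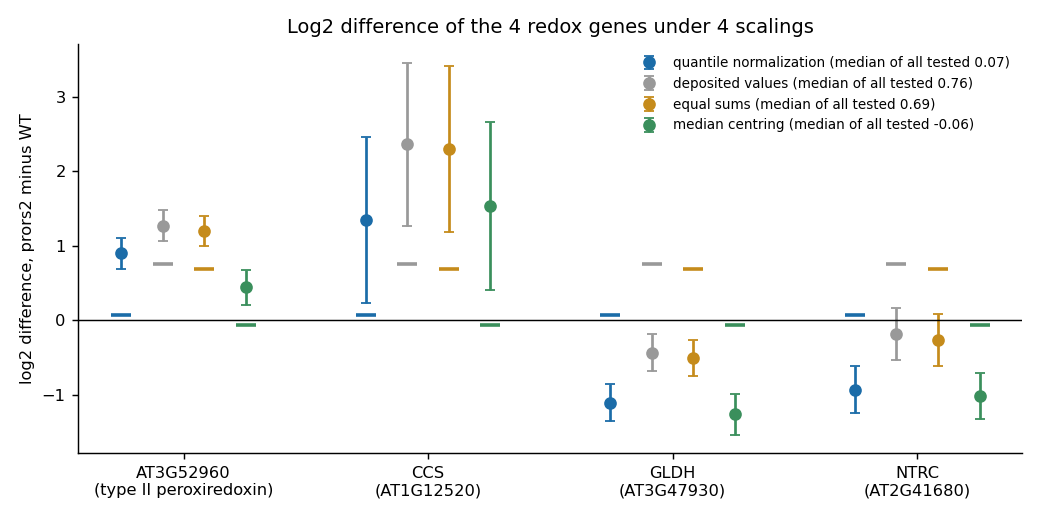
Log2 difference (prors2 minus WT) of the 4 redox genes under 4 scalings between arrays. Points are limma estimates with 95% intervals, and short thick dashes mark the median of all 3024 tested features under the same scaling; the interval of NTRC includes 0 for deposited values and for equal sums, and those of the other genes do not include 0 under any of the 4.

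Ratios between genes on 1 array do not change with a scale factor per array, and show whether genes moved unequally. They do not cancel a shift that depends on intensity. Array medians lay between 0.279 and 0.305 in prors2 and between 0.135 and 0.169 in WT. Array sums differed less, at 3107 to 3278 and 2942 to 3167, so the shift was not a scale factor alone. Since probes differ in brightness, only the difference of a ratio between genotypes is read here, and as a description with no test. The log2 ratio of AT3G52960 over GLDH was between 1.72 and 2.30 in prors2 and between 0.03 and 0.67 in WT, without overlap, a mean difference of 1.71. That of AT3G52960 over NTRC was between 1.90 and 2.62 in prors2 and between 0.29 and 1.21 in WT, a mean difference of 1.46. The AT3G52960 transcript thus gained on both the NTRC and the GLDH transcript in all 6 prors2 samples, whatever the scale factor of an array. Whether NTRC acts on this peroxiredoxin was not tested.

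NTRC and GLDH kept a similar ratio in both genotypes. The log2 ratio of NTRC over GLDH averaged -0.15 ± 0.27 in prors2 and -0.39 ± 0.41 in WT (SD, n = 6 each), with overlapping samples. Over CCS, that of NTRC differed by -2.52 and that of GLDH by -2.85, each without overlap between 6 prors2 and 5 WT samples. That of AT3G52960 over CCS averaged 3.47 ± 0.63 in prors2 (SD, n = 6) and 4.61 ± 1.21 in WT (SD, n = 5) and overlapped. Such separation was common: over all pairs of the 2654 features above 0 in all samples, 30.8% of ratios did not overlap between the genotypes, so nothing particular to the redox genes is read from it.

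**Figure D4:**
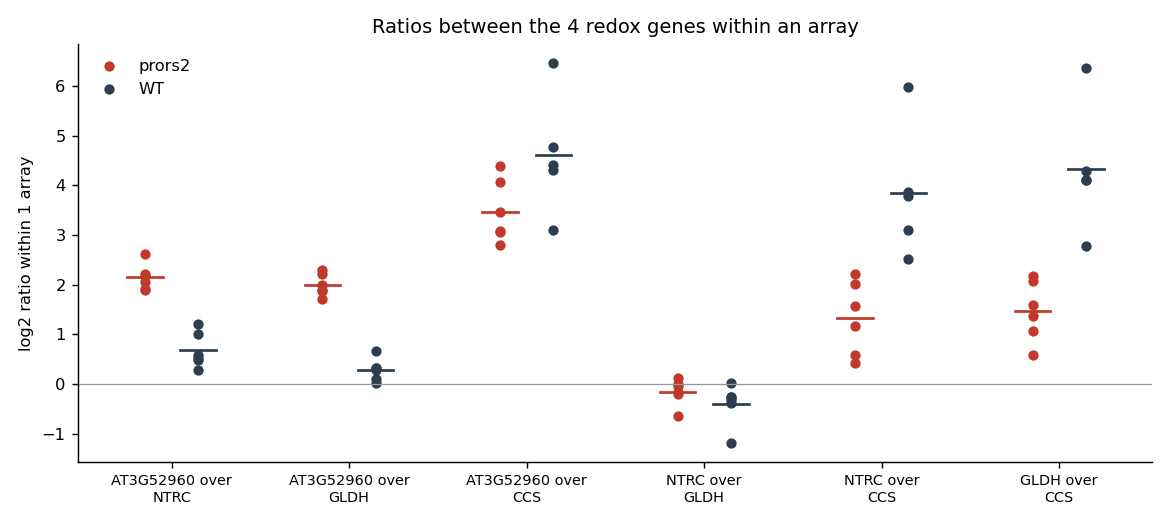
Log2 ratio of the deposited intensities of 2 redox genes on the same array, for the 6 pairs of the 4 genes, in prors2 (red) and WT (dark blue). Points are samples and short lines are means; WT replicate 2 is missing from the 3 ratios over CCS, and the genotypes overlap for AT3G52960 over CCS and for NTRC over GLDH.

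As a description with no test, the differences were also taken within sets of neighbouring replicate numbers, 1 and 2, 3 and 4, and 5 and 6. WT array medians lay close within these sets, at 0.154 and 0.158, 0.169 and 0.169, and 0.135 and 0.14. In prors2 they were 0.279 and 0.288, 0.301 and 0.305, and 0.285 and 0.296, less clearly set apart. Whether neighbouring arrays share plants or RNA was not tested. The main fit treated the 6 arrays of a genotype as independent, and its p-values hold only if they are. After quantile normalization AT3G52960 lay at 0.88, 0.99 and 0.83 in these sets, GLDH at -0.86, -1.24 and -1.22, and NTRC at -0.89, -1.23 and -0.69. Each of these genes kept its direction in every set. CCS lay at 0.09, 2.16 and 1.10, near 0 in the first set, where 1 of the 2 WT samples was at 0 and left out.

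The rest of the redox system was read from 9 lists of 113 loci, written with earlier results of these data known. They cover peroxiredoxins, thioredoxins and their reductases, ascorbate synthesis, superoxide dismutases and copper delivery, the ascorbate and glutathione cycle, catalases and glutathione peroxidases, glutaredoxins and methionine sulfoxide reductases, tocopherol synthesis, and ferredoxins with their NADP reductases. A probe of their own was found for only 6 of the 113, the 4 genes above and 2 more, and 5 of the 9 lists had none. A further 6 probes tie a listed locus to other genes as well and were not read. Of the 6 loci 2 were called higher and 3 lower, where 24.8% of all tested features were called higher and 22.4% lower. The median over these 6 was -0.66, against 0.07 over all tested features. It lies between loci that went opposite ways and describes no common change. The other members of the pathway are not analysed here.

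SRX (AT1G31170), sulfiredoxin, which repairs certain overoxidised peroxiredoxins, showed a pattern like that of NTRC. Its deposited intensity averaged 0.161 ± 0.031 in prors2 and 0.164 ± 0.031 in WT (SD, n = 6 each), with overlapping samples and a log2 difference of -0.02 (limma adjusted p = 0.912). Within an array SRX stood above 23.3% to 39.9% of features in prors2 and above 42.9% to 61.4% in WT. After quantile normalization it fell by 0.92 (SE 0.17, limma adjusted p = 9.06e-04), and all 6 replicate numbers lay between -1.16 and -0.68. AT3G52960 over SRX had a log2 ratio between 2.54 and 3.37 in prors2. In WT it was between 1.31 and 2.08, a mean difference of 1.29. On the deposited values AT3G52960 itself differed by 1.27 and SRX by -0.02. Over all pairs of the 2654 features above 0 in all samples, 30.8% of ratios did not overlap either. Nothing particular to this pair is therefore read from it, and whether SRX acts on this peroxiredoxin was not tested.

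AT2G04700, the catalytic subunit of the ferredoxin-thioredoxin reductase, supplies the plastid's other source of reduced thioredoxin. Its deposited intensity averaged 0.559 ± 0.067 in prors2 and 0.52 ± 0.12 in WT (SD, n = 6 each). The groups overlapped, and after quantile normalization the difference of -0.41 (SE 0.16, 95% interval -0.75 to -0.06) did not pass (limma adjusted p = 0.052). With replicate numbers as a block it passed at the same size (limma adjusted p = 0.0117), and after median centring at -0.70 (limma adjusted p = 0.00634). Without scaling it lay at 0.13 and with sums made equal at 0.05 (limma adjusted p = 0.488 and 0.781). Within the replicate numbers the normalized difference was between -0.59 and -0.09.

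Single-gene features with the profile most like each redox gene were sought among 507 that were above 0 in all 12 samples. The measure was the root mean square difference of normalized log2 values, each profile centred on its own mean, so genes with a like difference between genotypes come out near. Nearest to AT3G52960 were AT2G27290 at 0.10, AT4G19900 at 0.17 and AT3G54680 at 0.18, where the median candidate lay at 0.603. Nearest to GLDH were LHB1B2 (AT2G34420), a chlorophyll-binding antenna protein of photosystem II, at 0.16, AT1G72020 at 0.18 and AT1G74470, the geranylgeranyl reductase of chlorophyll synthesis, at 0.21, with the median at 0.761. AT1G72020 was also near NTRC, at 0.24, after AT1G24040 at 0.20 and AT3G50180 at 0.22, with the median at 0.715. CCS had no near neighbour over the 11 samples in which it was above 0: the closest were APTX (AT5G01310) at 0.68, AT4G38020 at 0.70 and AT1G11470 at 0.71, with the median at 1.12.

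LHB1B2 had an intensity of 10.6 ± 0.36 in prors2 and 32.7 ± 2.0 in WT (SD, n = 6 each) and fell by 1.23 after normalization, close to the fall of GLDH on that scale. It belongs to a family of similar genes that its probe may also read. The likeness was measured on normalized profiles, and on the deposited values the difference of GLDH was -0.44.

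**Figure D5:**
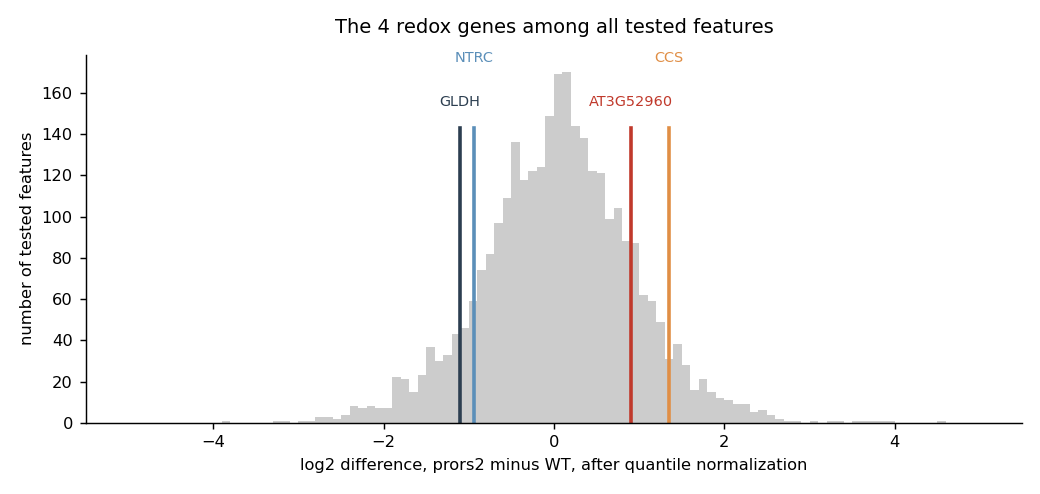
Number of tested features (vertical axis) by log2 difference, prors2 minus WT, after quantile normalization (horizontal axis, bins of equal width), over all 3024 tested features. Coloured lines mark the 4 redox genes, GLDH at -1.11, NTRC at -0.94, AT3G52960 at 0.90 and CCS at 1.34, all within the range of many other features.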

How the data were processed

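Total RNA of 6 prors2 and 6 WT samples was measured on 1-channel arrays, with genotype and replicate number taken from the sample titles. The deposited values are linear relative intensities from 0 to 100. For these intensities, the sources used here name no scale reference, background correction, array design or software. Precision is limited by how many arrays there were. The table held 3439 features, 0 value columns of other samples and 0 identical pairs of columns.

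The 4 genes and the gene lists were chosen with earlier results of these data known. The platform's gene table gave 692 single-gene probes; 870 probes with several genes and 1877 features not in it were not named. Of the 692, 690 matched the TAIR10.1 gene table. Coordinates are left out, since the array's genome build is not stated.

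Log2 values (zeros missing) were quantile-normalized, and genotype was fitted as the only term (limma 3.58.1 under R 4.3.3, lmFit and eBayes, two-sided); the script was tested on simulated data. Same-numbered samples deviated together over the 2654 features above 0 in all samples (correlations 0.212 to 0.399, 12 of 12 samples highest with their own number). The numbers were therefore taken to pair the samples in the replicate block and in the differences by number, while the main fit left this pairing out. The pairing comes from the values, since the labels state none. Genes named are the 4, the listed loci with a single-gene probe and, for each of the 4, the 3 features of most similar profile. Alternatives were a replicate block, a block of neighbouring numbers, 3 other scalings, 2 treatments of zeros (the lowest positive value, or an added offset of 0.0296), 3 filters, trend and robust fits, an exact permutation test per feature, and leaving out each sample.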

Additional observations from a re-analysis of the deposited data

Results flagged for a closer look

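Dixon's test for a single outlying sample was run on 24 groups of values, the deposited intensities and the normalized log2 values of each genotype for the 6 redox loci, and picked out 3, all of NTRC. Chance picks out about 5% of such groups, and the deposited and normalized values of a gene are not independent. In prors2, replicate 3 had an intensity of 0.205 and a normalized log2 value of -2.78, below the other 5 samples. In WT, replicate 5 had a normalized log2 value of -1.70, the lowest of its genotype. Without prors2 replicate 3 NTRC differed by -0.84, and without WT replicate 5 by -0.998, past the threshold in both.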

How the results depend on the processing

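AT3G52960 and GLDH kept their direction and call under all 12 alternatives to the main fit and under each of the 12 fits without 1 sample, which ran from 0.85 to 0.94 for AT3G52960 and from -1.17 to -1.04 for GLDH. NTRC kept both except on the deposited values (-0.19, limma adjusted p = 0.312) and at equal sums (-0.26, adjusted p = 0.158); without 1 sample it ran from -0.998 to -0.84. CCS kept its direction throughout but lost its call under 7 alternatives: with replicate numbers as a block (1.37), with neighbouring numbers as a block (1.25), with zeros at the lowest positive value (3.10), with an offset before log2 (0.75), and, at 1.34, with at least 2 values above 0 per genotype, with trend and robust fits and in the exact permutation test (adjusted p = 0.0511, 0.059 and 0.0547). Adjusted p over its alternatives with a lost call reached 0.254. Without 1 sample CCS ran from 0.86 to 1.69 and was not called in 8 of 12 fits. With the features limited to those above 0 in all 12 samples, or without the dimmest 25%, CCS was not among them. The cause of these changes was not tested. The pairing by replicate number changed no call among the 4 genes other than that of CCS. The count of called features, 1427, moved by less than 1.5 times under every alternative. It was lowest at 1313, both with zeros at the lowest positive value and without the dimmest 25%, and highest at 2016 on the deposited values; equal sums gave 1962 and the replicate block 1605.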
